A study of Danio rerio with 6 samples.

Results

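The genes described here are the core of the aryl hydrocarbon receptor (AHR) pathway in zebrafish. They comprise 3 receptor genes (*ahr1a*, *ahr1b* and *ahr2*), 2 genes of receptor repressors (*ahrra* and *ahrrb*), 4 cytochrome P450 genes of family 1 (*cyp1a*, *cyp1b1*, *cyp1c1* and *cyp1c2*) and *tiparp*. The genes were chosen by symbol, and all 10 were among the 15419 symbols of the deposited count table. Of these, 7 had enough counts to be tested, out of 11062 genes tested in all.

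Guts were dissected from larvae at 5 days post-fertilization (dpf), 10 to 15 guts were pooled per library, and mRNA was sequenced from 3 WT germ-free (GF) and 3 *il26-/-* GF libraries. The *il26-/-* fish carried a CRISPR/Cas9 deletion across the start of *il26*, the gene of a cytokine of the interleukin-10 family. Parents of the 2 genotypes were siblings of the same clutch but were housed apart, so tank and genotype of the parents cannot be told apart. Larvae of both genotypes came from bleached eggs and were raised in sterile medium with chloramphenicol, ceftazidime, kanamycin and ampicillin, so the antibiotics were common to WT GF and *il26-/-* GF. The comparison asks how loss of *il26* changes the gut transcriptome when no microbes are present. Each library is a pool of whole guts, and fewer cells of a type and less RNA per cell cannot be told apart in it. The labels number the replicates but do not say which pools came from separate clutches, so p-values measure the spread between these pools. Values of single libraries are listed below in the order of replicates 1, 2 and 3 of each genotype.

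The AHR is a transcription factor of the basic helix-loop-helix PAS family that is switched on by small molecules. Without ligand it waits in the cytosol with Hsp90 and co-chaperones. With ligand, which can be a dioxin, a polycyclic hydrocarbon, an indole made by gut bacteria or a host product of tryptophan, it moves to the nucleus, pairs with Arnt and turns on its targets. The first of these are the family 1 cytochromes P450, which break many ligands down, and the repressors Ahrr and Tiparp, which close a negative feedback loop. In mouse, the AHR of the gut is known for its role in innate lymphoid cells, in intraepithelial lymphocytes and in the epithelium.

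The total counts per library were between 7528412 and 38143258, with *il26-/-* GF replicate 1 the lowest and *il26-/-* GF replicate 2 the highest. Levels are given as CPM, counts scaled to a library of 1000000, with library sizes corrected by the TMM method, and 3 counts corresponded to between 0.0765 and 0.369 CPM. Of the 9 enterocyte markers in the table, *vil1* and *cldn15la* had 2520 to 3196 and 563 to 676 CPM. Markers of hepatocytes, exocrine pancreas and skeletal muscle were also present in every library, so the pools held more than gut epithelium. The enterocyte gene *fabp2* reached only 0.839 CPM, and the abundant muscle genes *ckma* and *mylpfa* had 1 and 2 counts over the 6 libraries beside 24438 for *ckmb*. A count near 0 in this table is therefore given as a listed value and not as absence of the transcript. *il26* itself had 0 counts over the 6 libraries, which left the genotypes unchecked.

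*ahr1a*, *ahr2*, *cyp1a* and *tiparp* had folds of 0.914 to 1.01, *il26-/-* GF over WT GF, the level of *ahr1b* was too low and variable for a narrow estimate, and the neighbouring genes *cyp1c1* and *cyp1c2* had higher means in *il26-/-* GF. With p-values of edgeR's quasi-likelihood test adjusted over all genes by the Benjamini-Hochberg method, 0 of the 7 members tested were called at 0.05, where 0.00904% of all genes were, which is 1 gene. Before adjustment, 1 member, *cyp1c2*, had a p-value under 0.05, where 5.32% of all genes did (589 genes), 3.06% with higher and 2.27% with lower levels in *il26-/-* GF. These were 338 and 251 genes, and with libraries scaled by total counts only they were 442 and 108. The CPM of the genotypes did not overlap for 1 member, again *cyp1c2*, where 9.64% of all genes did not overlap, 4.81% with *il26-/-* GF above and 4.83% with *il26-/-* GF below. The median log2 fold change of the 7 members, *il26-/-* GF minus WT GF, was 0.016, beside -0.0011 over all genes tested.

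**Figure D1:**
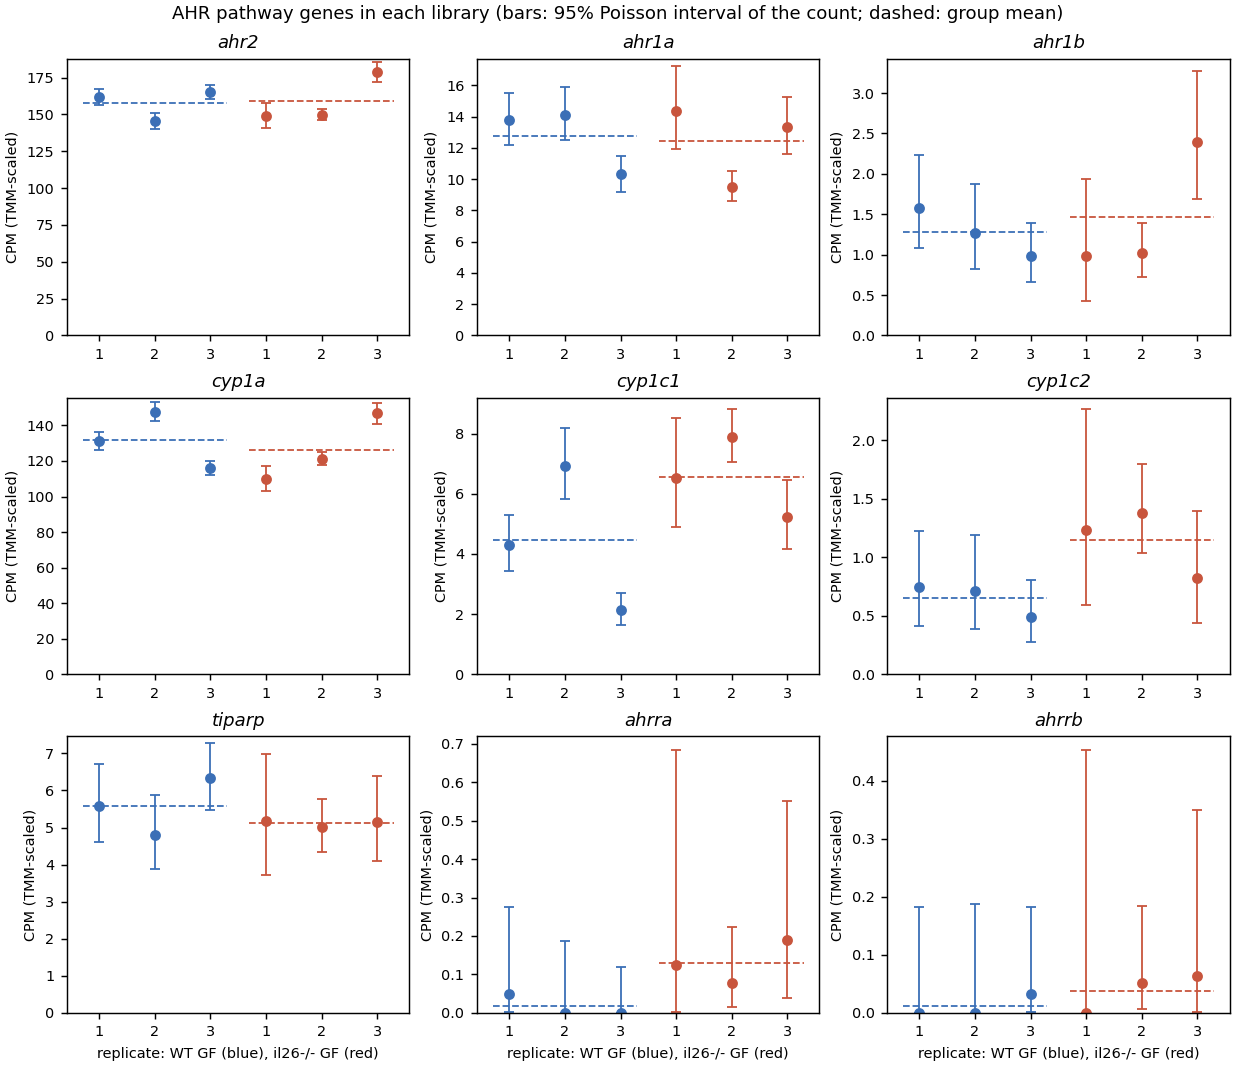
CPM (y axis, each panel from 0) of 9 AHR pathway genes in the 6 libraries (x axis, replicates of WT GF in blue and *il26-/-* GF in red), with the 95% Poisson interval of each count and the group mean as a dashed line. *ahr2* stays between 145 and 179 CPM in every library, *cyp1c2* is higher in each *il26-/-* GF library than in each WT GF library but with wide intervals, and *ahrra* and *ahrrb* lie near 0.

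Among the receptors, *ahr2* encodes the one through which dioxins act on zebrafish embryos. Its level was 162, 145 and 165 CPM in WT GF and 149, 150 and 179 CPM in *il26-/-* GF. The groups overlapped, and the highest library was 1.23 times the lowest, which was the narrowest range of the 7 members tested. The means were 157 ± 10.6 CPM (SD, n = 3) in WT GF and 159 ± 16.8 CPM (SD, n = 3) in *il26-/-* GF. The log2 fold change was 0.016 with a standard error of 0.11, and the 95% confidence interval of the fold was 0.846 to 1.21 (adjusted p = 1.00, edgeR). A 2-fold change in either direction lay outside this interval, as it did for *ahr1a*, *cyp1a* and *tiparp*.

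*ahr1a* encodes a receptor that binds dioxin poorly in zebrafish. It had 13.8, 14.1 and 10.3 CPM in WT GF and 14.4, 9.52 and 13.3 CPM in *il26-/-* GF. The 2 lowest libraries belonged to different genotypes, WT GF replicate 3 and *il26-/-* GF replicate 2. Its fitted fold, *il26-/-* GF over WT GF, was 0.964 (95% confidence interval 0.703 to 1.32, adjusted p = 1.00, edgeR).

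*ahr1b*, which lies next to *ahr2* on chromosome 22 of the GRCz12tu assembly, encodes a receptor that does bind dioxin. It had 1.58, 1.27 and 0.978 CPM in WT GF, from 32, 25 and 30 counts. In *il26-/-* GF it had 0.984, 1.02 and 2.39 CPM, from 8, 40 and 38 counts. *il26-/-* GF replicate 3 stood alone, and its 95% Poisson interval of 1.69 to 3.28 CPM lay above the intervals of WT GF replicate 3 and *il26-/-* GF replicate 2. The fitted fold was 1.16 (95% confidence interval 0.604 to 2.23, adjusted p = 1.00, edgeR), so a 2-fold increase was not excluded. Without *il26-/-* GF replicate 3 the log2 fold change of *ahr1b* was -0.31 in place of 0.21.

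The neighbours *ahr2* and *ahr1b* shared *il26-/-* GF replicate 3 as their highest library. *ahr2* took between 90.4% and 93.6% of the counts that fell on the 3 receptors in a library. This share is of reads, without correction for transcript length, so it does not rank the receptors by transcript number. It was lowest in WT GF replicate 2 (Wilson 95% interval 89.4% to 91.4%) and highest in WT GF replicate 3 (92.9% to 94.2%). Both extremes were thus WT GF libraries, and the 3 *il26-/-* GF libraries lay between them.

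**Figure D2:**
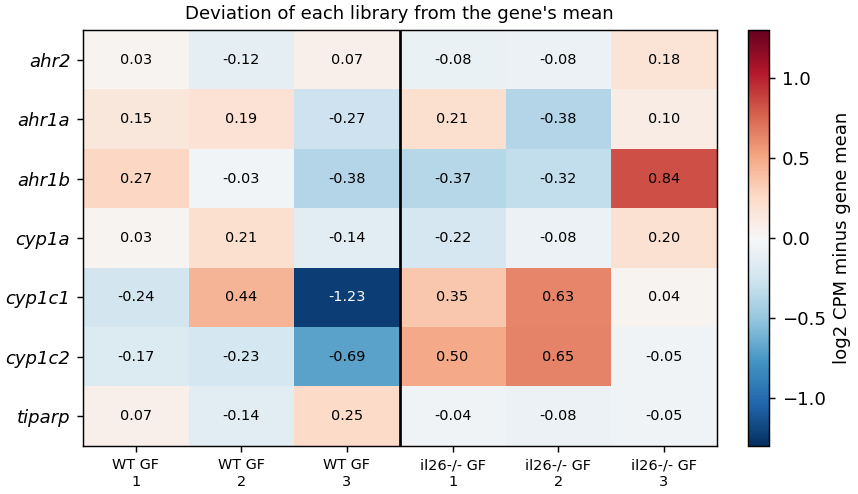
Log2 CPM of each tested AHR pathway gene (rows) minus the gene's mean over the 6 libraries, by library (columns; WT GF left and *il26-/-* GF right of the line), with colour and printed value giving the same quantity. *ahr2*, *cyp1a* and *tiparp* lie between -0.22 and 0.25 throughout, whereas *cyp1c1* reaches -1.23 in WT GF replicate 3 and *ahr1b* 0.84 in *il26-/-* GF replicate 3.

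*cyp1a*, whose enzyme oxidizes polycyclic hydrocarbons, is the usual readout of AHR activity. It had 131, 148 and 116 CPM in WT GF and 110, 121 and 147 CPM in *il26-/-* GF. The groups overlapped, with the highest level in WT GF replicate 2 and the lowest in *il26-/-* GF replicate 1. The means were 132 ± 15.8 CPM (SD, n = 3) in WT GF and 126 ± 18.8 CPM (SD, n = 3) in *il26-/-* GF. The log2 fold change of *cyp1a* was -0.061 with a standard error of 0.14 and a 95% confidence interval of -0.39 to 0.27 (adjusted p = 1.00, edgeR).

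The 2 libraries with the highest *cyp1a*, WT GF replicate 2 and *il26-/-* GF replicate 3, were also the 2 with the highest sums of the hepatocyte and exocrine pancreas markers. The 11 hepatocyte markers in the table summed to 2505, 7960 and 4584 CPM in WT GF and to 4548, 5843 and 7773 CPM in *il26-/-* GF. *cyp1a* is known to be made in liver as well as gut, and the part of liver tissue in its level was not tested. The order of the libraries was not the same throughout, since WT GF replicate 1 had the lowest hepatocyte sum and the third highest *cyp1a*. The 10 exocrine pancreas markers summed to 42658, 60554 and 44582 CPM in WT GF and to 37059, 45697 and 50301 CPM in *il26-/-* GF. Their lowest sum was in *il26-/-* GF replicate 1, as for *cyp1a*. WT GF replicate 1 was below WT GF replicate 3 in this sum but above it in *cyp1a*. The part of pancreas tissue was not tested either. The 3 genes most like *cyp1a* across the 6 libraries were *itga9*, *mknk2b* and *bach1b*, by the root mean square difference of centred log2 CPM, which was 0.042, 0.050 and 0.054. They were the closest of 10311 genes compared. No other member compared was near, with *ahr2* at rank 2037 and *cyp1c1* at rank 9801. *cyp1c2*, *ahrra*, *ahrrb* and *cyp1b1* had too low a level to be compared with *cyp1a* in this way.

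The receptor and its best-known target were also set against each other within libraries. For each *ahr2* count, WT GF libraries had 0.811, 1.02 and 0.702 *cyp1a* counts and *il26-/-* GF libraries had 0.738, 0.810 and 0.822. All 3 *il26-/-* GF values lay inside the range of WT GF. This ratio compares libraries and is not a ratio of transcript numbers.

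*cyp1c1* and *cyp1c2* encode P450 enzymes of a branch that fish have and mammals lack, and both respond to AHR agonists in zebrafish. They are direct neighbours among coding genes on chromosome 17 of GRCz12tu, and reads that fit both could have been split by the counting. *cyp1c1* had 4.29, 6.94 and 2.12 CPM in WT GF and 6.52, 7.91 and 5.22 CPM in *il26-/-* GF. WT GF replicate 2 lay above 2 of the 3 *il26-/-* GF libraries, so the groups overlapped. Within WT GF the highest library was 3.27 times the lowest, against 1.52 times within *il26-/-* GF.

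The means of *cyp1c1* were 4.45 ± 2.41 CPM (SD, n = 3) in WT GF and 6.55 ± 1.35 CPM (SD, n = 3) in *il26-/-* GF. The fitted fold was 1.51 with a 95% confidence interval of 0.794 to 2.86 (log2 fold change 0.59, standard error 0.40), and the difference did not pass the test (adjusted p = 1.00, edgeR). The size rested on single WT GF libraries. Without WT GF replicate 2 the log2 fold change was 1.07, with an unadjusted p-value under 0.05 and an adjusted p = 0.730 (edgeR), and without WT GF replicate 3 it was 0.24.

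*cyp1c2* had 0.740, 0.709 and 0.489 CPM in WT GF, from 15, 14 and 15 counts. In *il26-/-* GF it had 1.23, 1.38 and 0.817 CPM, from 10, 54 and 13 counts. Each *il26-/-* GF library was above each WT GF library, but the gap between WT GF replicate 1 and *il26-/-* GF replicate 3 was within counting error, with 95% Poisson intervals of 0.414 to 1.22 and 0.435 to 1.40 CPM. *cyp1c2* had a fitted fold of 1.82 with a 95% confidence interval of 1.08 to 3.07 (log2 fold change 0.86, standard error 0.32). This interval is not adjusted for the number of genes tested. The difference did not pass the adjustment over all genes (adjusted p = 0.869, edgeR), and 371 genes had smaller p-values.

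Over the alternatives, the adjusted p-value of *cyp1c2* was never under 0.547 and its log2 fold change lay between 0.63 and 1.06. Leaving out WT GF replicate 3, *il26-/-* GF replicate 1 or *il26-/-* GF replicate 2 took its unadjusted p-value over 0.05, and so did DESeq2. When every library was thinned to the smallest total, *cyp1c2* had too few counts to be tested. Both genes were lowest in WT GF replicate 3 and highest in *il26-/-* GF replicate 2. Summed, the pair had 5.03, 7.65 and 2.61 CPM in WT GF and 7.75, 9.29 and 6.03 CPM in *il26-/-* GF, where the groups overlapped. Most of the sum was *cyp1c1*, so its overlap says little about *cyp1c2*. This sum was chosen after the values had been seen and was not tested.

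Blood vessels are a known site of family 1 P450 expression in fish, so the endothelial markers are given beside these genes. The 9 markers in the table summed to 120, 127 and 106 CPM in WT GF and to 132, 120 and 118 CPM in *il26-/-* GF. The lowest sum was in WT GF replicate 3, as for both *cyp1c* genes. The highest sum was in *il26-/-* GF replicate 1, whereas both *cyp1c* genes were highest in *il26-/-* GF replicate 2. Of the 7 endothelial markers tested, 0 had a p-value under 0.05 even before adjustment. WT GF replicate 3 also stood apart in some skin keratins, with 92.3 CPM of *krt17* against 5.47 to 13.6 CPM in the other 5 libraries. The skin markers *cyt1*, *cyt1l* and *krtt1c19e* were highest there too. *krt4*, at 798 CPM, and *tp63*, at 2.38 CPM, lay inside the range of the other libraries. The part of these tissues in the *cyp1c* levels was not tested.

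**Figure D3:**
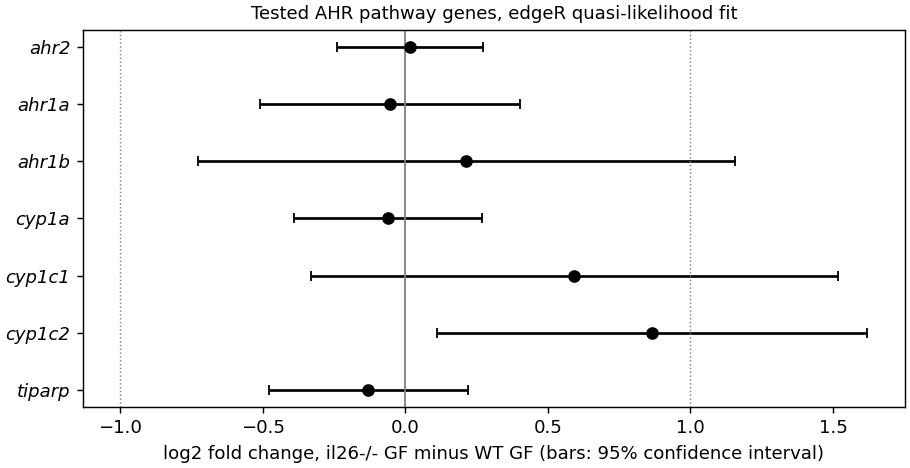
Log2 fold change (x axis, *il26-/-* GF minus WT GF) of the 7 AHR pathway genes tested (y axis), with 95% confidence intervals from edgeR's quasi-likelihood fit and dotted lines at a 2-fold change. The intervals of *ahr2*, *ahr1a*, *cyp1a* and *tiparp* lie inside the dotted lines, those of *ahr1b* and *cyp1c1* span 0 and pass a 2-fold increase, and that of *cyp1c2* runs from 0.11 to 1.62.

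*cyp1b1*, whose product in other vertebrates metabolizes oestrogens, retinoids and polycyclic hydrocarbons, had 0 counts in all 6 libraries. The upper 95% Poisson limit of this count was between 0.0941 and 0.454 CPM in the 6 libraries, which covers counting error only. As for the other genes near 0 in this table, the value is a listed 0 and does not show that the transcript was absent. No comparison of the genotypes could be made for it.

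Of the inhibitors, *tiparp* encodes an ADP-ribosyltransferase that is induced by the AHR and modifies it in return. It had 5.58, 4.81 and 6.33 CPM in WT GF and 5.17, 5.03 and 5.15 CPM in *il26-/-* GF. The *il26-/-* GF libraries differed by a ratio of at most 1.03 and lay inside the range of WT GF, where the ratio was 1.32. *tiparp* had a fitted fold of 0.914 (95% confidence interval 0.717 to 1.16, adjusted p = 1.00, edgeR).

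The receptor repressors, whose products compete with the AHR for Arnt and for its DNA sites, were near the limit of detection. *ahrra* had 1, 0 and 0 counts in WT GF and 1, 3 and 3 counts in *il26-/-* GF. *ahrrb* had 0, 0 and 1 counts in WT GF and 0, 2 and 1 counts in *il26-/-* GF. No count exceeded 3, both genes were left out by the filter on low counts, and no fold is given. These counts were too few to judge a difference in the repressors.

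Members varied in how far apart the 6 libraries lay. The highest library was 1.23, 1.32, 1.34 and 1.51 times the lowest for *ahr2*, *tiparp*, *cyp1a* and *ahr1a*, and 2.44, 2.82 and 3.73 times the lowest for *ahr1b*, *cyp1c2* and *cyp1c1*. The 3 genes with wide ranges all had means under 7 CPM in both genotypes, but so did *tiparp*. The sign of the fold change was steady only for *cyp1c1* and *cyp1c2* over all alternatives tried. For *ahr2*, *ahr1a*, *ahr1b* and *cyp1a* it flipped when certain single libraries were left out, and for *tiparp* when counts were thinned.

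**Figure D4:**
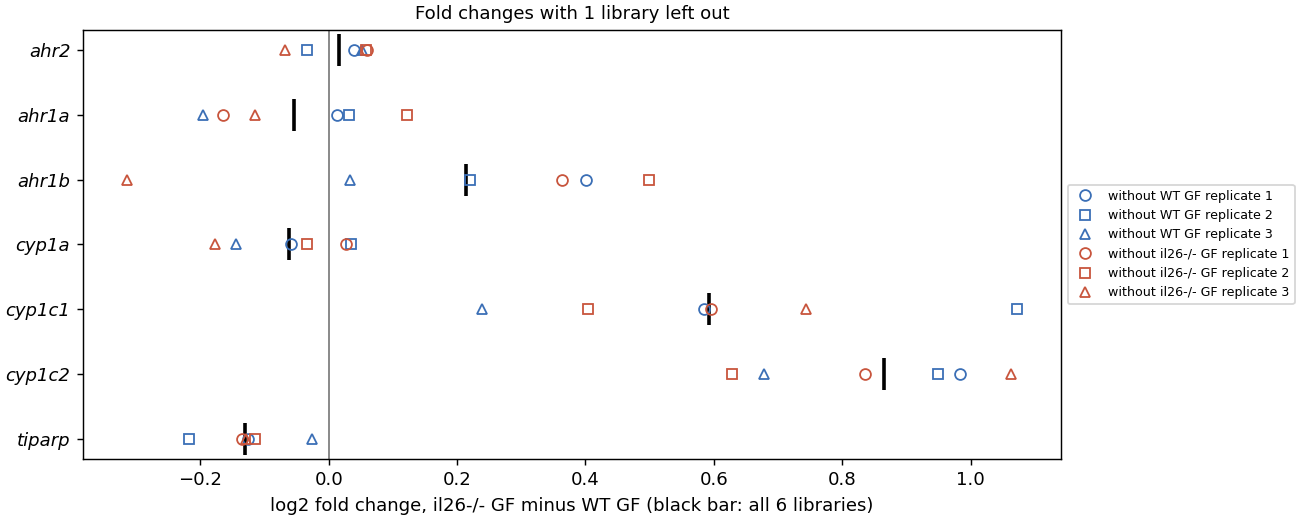
Log2 fold change (x axis, *il26-/-* GF minus WT GF) of the 7 AHR pathway genes tested (y axis) with all 6 libraries (black bar) and with each library left out in turn (symbols). All 6 values of *cyp1c1* and of *cyp1c2* are above 0, from 0.24 to 1.07 and from 0.63 to 1.06, whereas those of *ahr1b* run from -0.31 to 0.50.

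None of the 10 members lies on the chromosome of *il26* in GRCz12tu, chromosome 4. The members are spread over 7 chromosomes, with *cyp1a* and *tiparp* both on chromosome 18 but not adjacent.

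The wider pathway was read from 4 lists of 52 genes, of which 41 were in the table and 31 were tested. Before adjustment, 3 of the 31 had higher and 4 had lower levels in *il26-/-* GF with a p-value under 0.05, beside 3.06% higher and 2.27% lower among all genes tested. The lists were chosen with earlier results of these data known, so these counts beside all genes are a description and not a test. After adjustment, 0 of the 31 remained under 0.05 in edgeR's quasi-likelihood test. Of the 7 genes, DESeq2 called 3, *nqo1*, *ugt1a1* and *haao*, and edgeR's likelihood ratio test called 1, *hsp90aa1.1*. Over all 11062 genes tested, DESeq2 called 52 and the likelihood ratio test 75. Only these 7 list genes, picked by their p-values in the same data, were looked up under DESeq2 and the likelihood ratio test.

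Of the partners, chaperones and coactivators of the receptor, 9 were tested, with a median log2 fold change of 0.092. Before adjustment, 1 gene with a higher and 1 with a lower level had a p-value under 0.05, both of them cytosolic Hsp90 alpha genes. The Hsp90 beta gene *hsp90ab1*, which had the most counts of this list, had means of 7885 CPM in WT GF and 7153 CPM in *il26-/-* GF. Its groups overlapped (fold 0.907, 95% confidence interval 0.767 to 1.07). *arnt*, named here as the gene of the receptor's DNA-binding partner, had 11.6, 9.72 and 11.6 CPM in WT GF and 13.4, 9.24 and 13.0 CPM in *il26-/-* GF (fold 1.07, 95% confidence interval 0.809 to 1.40). *hsp90aa1.1*, which in zebrafish is known for its role in muscle myosin folding, had 1.88, 2.23 and 1.60 CPM in WT GF and 5.66, 5.59 and 2.70 CPM in *il26-/-* GF. Its fold was 2.45 (95% confidence interval 1.49 to 4.06, adjusted p = 0.514, edgeR).

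Markers of skeletal muscle are given beside *hsp90aa1.1*. The 10 in the table summed to 1094, 1038 and 1990 CPM in WT GF and to 1777, 2695 and 1739 CPM in *il26-/-* GF. Of the 8 tested, 4 had a p-value under 0.05 before adjustment, all with higher levels in *il26-/-* GF and none passing the adjustment. These were *atp2a1*, *myl1*, *tnnt3b* and *acta1b*, with folds of 2.55, 1.97, 1.59 and 1.39, and the genotypes did not overlap for the first 3, as for *hsp90aa1.1*. Among all genes tested, 3.06% had higher levels with an unadjusted p-value under 0.05. For 4.81% the genotypes did not overlap, with *il26-/-* GF above. The other tested markers went both ways, with folds of 1.45 for *actc1b*, 1.49 for *ckmb*, 0.578 for *tnni2a.4* and 0.647 for *pvalb1*. The remaining 2 of the 10, *ckma* and *mylpfa*, had the near-0 counts given above and were not tested. The part of muscle in the level of *hsp90aa1.1* was not tested. Its neighbour *hsp90aa1.2*, the other Hsp90 alpha gene, had 27.9, 47.5 and 28.8 CPM in WT GF and 21.4, 28.8 and 19.0 CPM in *il26-/-* GF. Its fold was 0.669 (95% confidence interval 0.451 to 0.992, adjusted p = 0.916, edgeR), and its unadjusted p-value was over 0.05 in 5 of 16 alternatives. The pair lies side by side on chromosome 20, and its reads could have been shared by the counting. Its sum of 29.8, 49.8 and 30.4 CPM in WT GF against 27.1, 34.4 and 21.7 CPM in *il26-/-* GF overlapped. Most of this sum was *hsp90aa1.2*, so its overlap says little about *hsp90aa1.1*. The sum of the pair was formed after the values had been seen and was not tested.

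Of the other genes known to respond to the AHR, 11 were tested, with a median log2 fold change of 0.073. Before adjustment, 2 with higher and 2 with lower levels in *il26-/-* GF had a p-value under 0.05. *nqo1*, a quinone reductase that also answers to the oxidative stress factor Nrf2, had 248, 369 and 222 CPM in WT GF and 180, 164 and 146 CPM in *il26-/-* GF. All 3 *il26-/-* GF libraries were below all 3 WT GF libraries. The fold was 0.583 (95% confidence interval 0.425 to 0.801, adjusted p = 0.550, edgeR). *foxq1b*, a forkhead factor induced by dioxin in zebrafish, had a difference of the opposite sign. Its level was 18.6, 15.8 and 18.7 CPM in WT GF and 26.3, 21.5 and 25.1 CPM in *il26-/-* GF, without overlap (fold 1.37, 95% confidence interval 1.13 to 1.65, adjusted p = 0.552, edgeR).

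The UDP-glucuronosyltransferase genes *ugt1a1* and *ugt1ab*, whose enzymes attach glucuronic acid to foreign and endogenous compounds, had differences of opposite sign. *ugt1a1* had 421, 413 and 372 CPM in WT GF and 270, 293 and 292 CPM in *il26-/-* GF (fold 0.709, 95% confidence interval 0.609 to 0.825, adjusted p = 0.336, edgeR). *ugt1ab* had 163, 124 and 176 CPM in WT GF and 268, 258 and 198 CPM in *il26-/-* GF (fold 1.56, 95% confidence interval 1.19 to 2.05, adjusted p = 0.552, edgeR). Neither gene's libraries overlapped between the genotypes. Both lie in a cluster on chromosome 9 whose genes are known to share their last exons, so reads could have been assigned to either. With *ugt1a7*, the third gene of the cluster on the list, they summed to 699, 705 and 691 CPM in WT GF and to 711, 712 and 658 CPM in *il26-/-* GF, where the groups overlapped. This sum, too, was formed after the values had been seen and was not tested. It left out other genes of the cluster, so it is not the total of the cluster.

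*cyp1d1*, the remaining family 1 P450 of zebrafish and known to respond weakly, if at all, to AHR agonists, had 87.3, 86.0 and 106 CPM in WT GF and 80.7, 75.1 and 100.5 CPM in *il26-/-* GF. The groups overlapped, as for *cyp1a* (fold 0.916, 95% confidence interval 0.727 to 1.15, adjusted p = 1.00, edgeR).

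The enzymes that lead from tryptophan to kynurenine and onwards, a host source of AHR ligands, had 8 genes tested, with a median log2 fold change of -0.18. Before adjustment, 1 with a lower level and 0 with a higher level had a p-value under 0.05. *haao*, whose enzyme opens the ring of the kynurenine product 3-hydroxyanthranilate on the way to nicotinamide nucleotides, had 182, 180 and 169 CPM in WT GF and 134, 78.4 and 77.9 CPM in *il26-/-* GF. All *il26-/-* GF libraries were below all WT GF libraries (fold 0.546, 95% confidence interval 0.386 to 0.771, adjusted p = 0.546, edgeR). Kynurenine enzymes are known to be abundant in liver. The hepatocyte markers varied widely among libraries, as their sums above show, 7 of the 11 had a fold above 1, and 0 had a p-value under 0.05 before adjustment. The part of liver tissue in the level of *haao* was not tested. The genes of the first step, *tdo2a*, *tdo2b* and *ido1*, had folds of 0.900, 0.758 and 0.847, and for each of them the libraries overlapped and the 95% confidence interval held 1.

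The other PAS proteins that compete for Arnt were represented by 3 genes tested of 10 in the table. Their log2 fold changes ran from -0.035 to 0.21, and none had a p-value under 0.05 before adjustment. *hif1al*, a hypoxia-inducible factor gene and the one with the most counts, had 180, 201 and 127 CPM in WT GF and 158, 158 and 180 CPM in *il26-/-* GF, with the *il26-/-* GF libraries inside the range of WT GF.

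**Figure D5:**
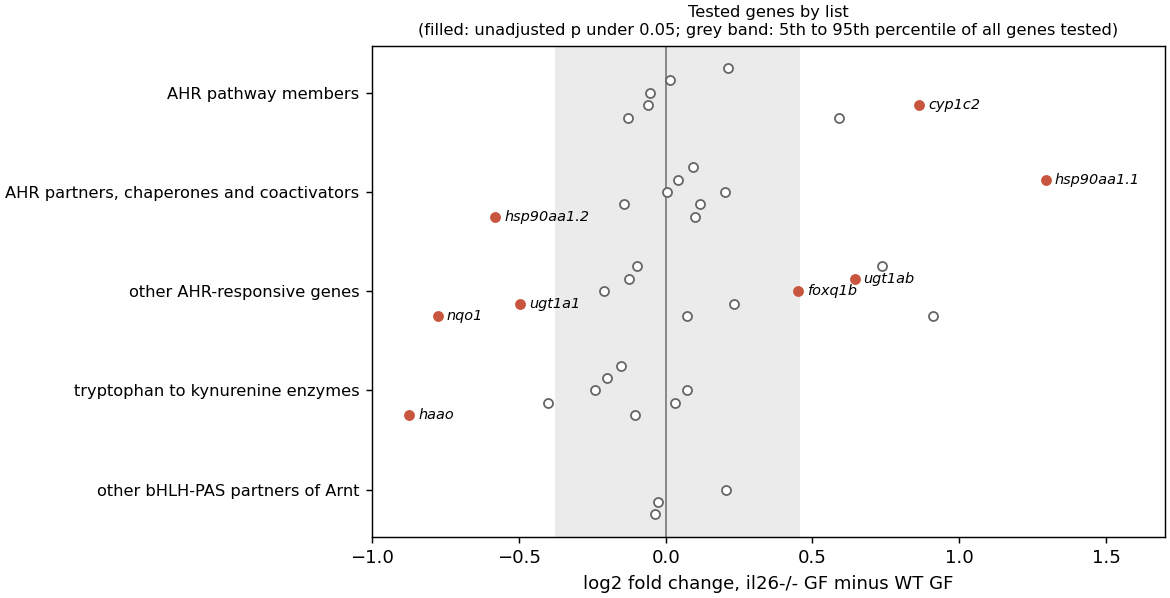
Log2 fold change (x axis, *il26-/-* GF minus WT GF) of each gene tested in the AHR core and in the 4 lists of the wider pathway (y axis; the vertical offset within a list has no meaning), filled where the unadjusted p-value was under 0.05, with a grey band from -0.37 to 0.45 for the 5th to 95th percentile of all genes tested. Filled points lie on both sides of 0, with 4 higher and 4 lower genes.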

How the data were processed

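The authors aligned paired-end reads of stranded mRNA libraries to danRer11, and the deposited table holds their raw, unnormalized count of reads for each gene symbol. FastQC and edgeR are named by the study; the counting tool and its annotation are not given in the sources used here, so counts of paralogs and overlapping genes are uncertain. Columns were matched to samples by library name, and 0 columns were left over.

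Genes were kept by edgeR's filterByExpr, scaled by TMM and compared between genotypes with no block in edgeR's quasi-likelihood framework, p-values being adjusted for 11062 genes by the Benjamini-Hochberg method. Versions were 4.0.16 for edgeR, 3.58.1 for limma, 1.42.0 for DESeq2 and 4.3.3 for R. The tests were tested on simulated data. Standard errors were derived from the F statistics, and log2 CPM used a prior count of 2. The members and lists were chosen with earlier results of these data known. The genes named were all members and the list genes with an unadjusted p-value under 0.05 (otherwise the gene with the most counts). The 3 genes with a mean of at least 1 CPM most like *cyp1a* were named too. Markers, *arnt*, *hsp90ab1*, *cyp1d1*, *ugt1a7*, *gstp2*, *tdo2a*, *tdo2b* and *ido1* were named besides, after their values were seen. Alternatives were other scalings, filters and tests, a replicate block, thinning, and each library left out. Chromosomes and neighbours came from RefSeq's GRCz12tu gene table, which is not the authors' build, so no coordinates are given. Intervals of single counts cover counting error only.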

Additional observations from a re-analysis of the deposited data

How the results depend on the processing

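Under the alternatives, the 7 members tested in the main fit had 109 fits. Of these, 94 kept the direction and stayed over an adjusted p-value of 0.05. The other 15, over 5 members, changed sign at a log2 fold change between -0.31 and 0.12. The sign changed with total counts only for *ahr1a* (0.045) and *cyp1a* (0.029). Under limma-voom with sample quality weights it changed for *ahr1b* (-0.14) and *ahr2* (-0.0051). Thinning changed it for *ahr1a* (0.042), *ahr2* (-0.011) and *tiparp* (0.10). Scaling by total counts moved the median of all genes by 0.084. With 1 library left out, log2 fold changes ranged from -0.20 to 0.12 for *ahr1a*, -0.31 to 0.50 for *ahr1b*, -0.068 to 0.060 for *ahr2* and -0.18 to 0.035 for *cyp1a*. The number of members called at an adjusted p-value under 0.05 was 0 throughout. The number at an unadjusted p-value under 0.05 was 0 with DESeq2 and with thinning, and ranged from 0 to 2 with 1 library left out. The cause was not tested.

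Over all genes, 4 were called at an adjusted p-value under 0.05 with upper-quartile scaling, 2 with total counts only, 4 with a filter of at least 1 count, 52 with DESeq2, 75 with the likelihood ratio test, 2 after thinning, and 0 to 3 with 1 library left out, in place of 1. At an unadjusted p-value under 0.05 there were 890 genes under limma-voom with sample quality weights, in place of 589. With 1 library left out there were 441 to 1133, and the highest came without WT GF replicate 3.

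With the replicate number as a block, 2 members had an unadjusted p-value under 0.05 (*cyp1c1*, adjusted p = 0.618, and *cyp1c2*, adjusted p = 0.650, edgeR). None passed the adjustment, and 15 genes were called over all. Genes below 0.05 before adjustment numbered 788 of 11062 when blocked and 589 in the main fit (edgeR). The rise in this count was thus not limited to the members. In the wider pathway lists, *gstp2* and *ido1*, over 0.05 without the block, had unadjusted p-values of 0.00115 and 0.0230 with it (edgeR). Their log2 fold changes were 0.86 and -0.24, and their adjusted p-values were 0.217 and 0.572 (edgeR). Deviations from the group means correlated by 0.18, 0.096 and 0.30 between the genotypes for replicates 1, 2 and 3. Between libraries of different replicate number the correlations ran from -0.32 to 0.17. Each WT GF library thus correlated most with the *il26-/-* GF library of its own number, but *il26-/-* GF replicate 2 correlated more with WT GF replicate 1. Whether the numbers pair the libraries was left undecided, and the main fit had no block because the study's methods name none.

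The main filter left out *ahrra*, *ahrrb* and *cyp1b1*. A filter of at least 1 count kept *ahrra* and *ahrrb*, and *cyp1c2* stayed the only member with an unadjusted p-value under 0.05 (edgeR). Low counts limited the comparison, and *cyp1c2* rested on 121 counts. Whether depth or the way genes were counted set these low values was not tested. Neither *cyp1c2* nor *ahr1b* passed the filter after thinning, and *ahr1b* did not pass a filter of at least 10 counts in every library.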
